A study of Mus musculus with 79 samples.

Results

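The genes described here make red cell heme and hemoglobin or build and switch on the red cell program. Of 8 listed genes, 4 had a row under their symbol in the platform's gene table and were measured, among 19505 genes in all: Alas2, Slc4a1, Epb42 and Klf1. The globin genes Hba-a1, Hbb-bs and Hbb-bt and the hemoglobin chaperone gene Ahsp had no row under these symbols and were not analysed here, so no adult globin is among the values below. The list was chosen by an outcome in these data, the rise of Alas2 in E0771 tumors of obese mice. Values from that contrast, and from the other contrasts that use the same E0771 arrays, are therefore given as a description without a test. The arrays were whole tumors of 79 female C57BL/6J mice, 1 array per tumor. Mice ate a control diet with 10 kcal% fat (Con) or a 60 kcal% fat diet that made them obese (DIO), and in further groups each diet was given with 140 ppm of sulindac (ConSul, DIOSul), a nonsteroidal drug that inhibits both cyclooxygenases. Diets started at 8 to 9 weeks of age and ran for 15 weeks before sulindac was added, and mice were 33 to 34 weeks old at the end. Cells were injected after 5 weeks of sulindac by the study's methods, whereas the sample records count the 5 weeks from the first randomization. Each mouse carried a tumor of 1 of 3 mouse mammary cancer cell lines, E0771, metM-Wnt-lung or metM-Wnt-liver, in the mammary fat pad. Each line is a single cell line, so its tumors are not a panel of cancers. Con, ConSul, DIO and DIOSul held 6, 6, 8 and 8 E0771 tumors, 6, 6, 7 and 7 metM-Wnt-lung tumors, and 7, 4, 7 and 7 metM-Wnt-liver tumors. These 12 line-by-group sets are the units compared.

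Heme is built by a chain of enzymes whose work begins and ends in mitochondria. The first step is rate-limiting and has an enzyme for most tissues, Alas1, and a separate enzyme for erythroid cells, Alas2, whose gene lies on the X chromosome. Maturing red cells accumulate ALAS2, globins and the membrane proteins that hold the cell's shape, and reticulocytes carry these RNAs into the circulation after the nucleus has been lost. Klf1 is the erythroid Krüppel-like factor, a transcription factor that binds CACCC boxes and acts with GATA1. Slc4a1 encodes band 3, the chloride and bicarbonate exchanger of the red cell membrane, and Epb42 encodes protein 4.2, which ties band 3 to the membrane skeleton. A mammary tumor holds such RNA in the blood of its vessels and in any bleeding, and in a bulk sample fewer cells of a type and less RNA per cell cannot be told apart.

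Alas2 is annotated at chrX:150547417-150570622, Slc4a1 at chr11:102348820-102365281, Epb42 at chr2:121017891-121036877 and Klf1 at chr8:84901982-84905291, all on mouse build GRCm38.p6. The 250 bases before the annotated start are printed for the 3 measured genes that have a window in the RefSeq promoter table of that build, since all 3 belong to a program in which GATA1 and KLF1 bind promoters. Windows were found for 6 of the 8 listed genes, and Slc4a1 and Ahsp had none. Each window is written 5′ to 3′ on the strand of its gene. Capitals mark 2 motifs that were searched on both strands. The first is the core of the GATA factors' site, with the letters GATAA, which appears as TTATC when it lies on the opposite strand. The second is the CACCC box, which appears as GGGTG when it lies on the opposite strand.
Alas2 (chrX:150547167-150547416, plus strand): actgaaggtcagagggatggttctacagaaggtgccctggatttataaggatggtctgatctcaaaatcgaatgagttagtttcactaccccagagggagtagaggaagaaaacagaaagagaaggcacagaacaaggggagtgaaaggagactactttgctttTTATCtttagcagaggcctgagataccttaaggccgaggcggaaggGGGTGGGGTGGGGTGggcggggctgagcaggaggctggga
Epb42 (chr2:121036878-121037127, minus strand): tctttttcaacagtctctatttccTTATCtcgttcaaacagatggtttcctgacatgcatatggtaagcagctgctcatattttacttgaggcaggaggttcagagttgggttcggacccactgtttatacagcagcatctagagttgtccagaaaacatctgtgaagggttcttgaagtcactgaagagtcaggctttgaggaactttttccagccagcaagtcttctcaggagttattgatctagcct
Klf1 (chr8:84901732-84901981, plus strand): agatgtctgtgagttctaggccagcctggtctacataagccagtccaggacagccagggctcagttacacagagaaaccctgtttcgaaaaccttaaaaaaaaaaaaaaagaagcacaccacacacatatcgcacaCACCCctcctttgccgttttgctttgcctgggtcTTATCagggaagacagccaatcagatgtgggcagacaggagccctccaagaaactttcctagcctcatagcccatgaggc
The Alas2 window held 1 GATA core, 86 to 82 bases before the start, and 3 adjoining CACCC boxes on the opposite strand between 40 and 26 bases before it. The Epb42 window held 1 GATA core, 226 to 222 bases before the start, and 0 CACCC boxes. The Klf1 window held 1 GATA core, 80 to 76 bases before the start, and 1 CACCC box 114 to 110 bases before it. The motifs did not overlap each other. Such matches are common, since of 32851 promoter windows of the same length 22.6% held the GATA core, 52.0% the CACCC box and 10.1% both. A match of 5 bases is a description and no binding site.

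All values below are log2 signals, and differences are on the log2 scale. Array medians were 6.285 to 6.805 over the 79 arrays. Both the 4 ConSul arrays of metM-Wnt-liver and the 6 Con arrays of metM-Wnt-lung stood apart, with a distance from the 1st to the 99th percentile of 13.13 to 13.38 against 12.88 to 13.08 in the other 41 metM-Wnt arrays, so every comparison with one of these groups carries that difference. In E0771 this distance was 12.77 to 13.049 in DIO and 12.97 to 13.11 in DIOSul. It was 13.03 to 13.169 in Con and 13.06 to 13.2 in ConSul. Comparisons with E0771 DIO arrays thus carry a difference in value range too. Of all arrays, 23 were high in skeletal muscle or keratinocyte genes, which mark muscle and skin beside the fat pad. Vim, the mesenchymal filament gene, was at 16.85 to 18.31 in all arrays. The epithelial genes Krt8, Krt18 and Epcam had line medians of 7.25 to 14.45, 3.965 to 5.305 and 4.57 to 6.19. Those of Krt18 and Epcam lay below the array medians, so these genes do not establish the tumor label, which rests on the sample records. Ptprc, the pan-leukocyte gene, was at 11.05 to 16.27, so each sample also held immune cells. The labels give each array as a separate tumor, and p-values measure the spread between these tumors.

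Alas2 was the member with the highest and the most variable signal. Its mean over the 79 arrays was 6.97, at the 50.5th percentile of all genes, and single arrays ran from the 34.8th to the 88.1st percentile. Its spread over the arrays (SD 1.34) was at the 94.5th percentile. Alas1, the enzyme of the same step outside the red cell lineage, was at 10.56 to 13.57 in these tumors. Signals of different genes on an array depend on their probes and give no ratio of RNA amounts.

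In E0771 tumors, Alas2 was highest in DIO mice. The 6 Con tumors had a lowest, median and highest signal of 5.69, 6.015 and 7.11. In the 6 ConSul tumors these values were 6.01, 6.86 and 7.23. The 8 DIO tumors had 7.39, 9.08 and 12.55. In the 8 DIOSul tumors they were 4.96, 6.015 and 8.56. Thus all 8 DIO tumors lay above all 6 Con tumors, a separation seen for 0.954% of all genes, whereas DIO and DIOSul tumors overlapped through 1 DIOSul tumor at 8.56. The other 7 of 8 DIOSul tumors lay below every DIO tumor.

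The fitted E0771 difference DIO minus Con of Alas2 was 2.88 ± 0.55 (SE, 95% interval 1.757 to 4.008), a 7.37-fold difference and the 6th largest of 19505 genes. DIO minus DIOSul was 2.94 ± 0.509 (95% interval 1.896 to 3.981), 7.67-fold and the 4th largest. Con minus ConSul was −0.525 ± 0.588. These 3 comparisons share the arrays that chose the gene and are not tested, and limma called 5.17%, 5.03% and 0% of all genes in them, with 1636 genes at an unadjusted p under 0.05 in the third. Without DIO replicate 2, the tumor at 12.55, the first difference was 2.386. The comparison of the 2 sulindac groups uses neither Con nor DIO arrays, and DIOSul minus ConSul was −0.581 ± 0.55 (95% interval −1.707 to 0.545, limma adjusted p = 0.695), where 0.0974% of genes were called.

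**Figure D1:**
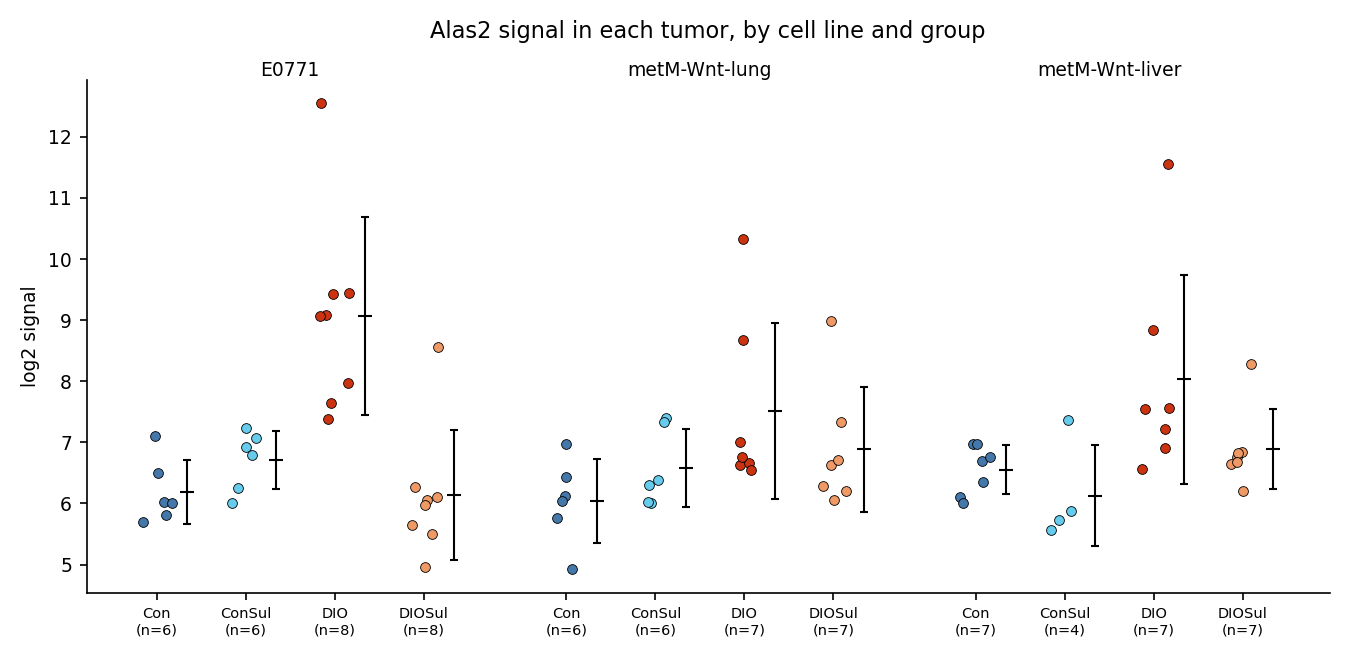
Alas2 log2 signal of each tumor (points) in the 12 line-by-group sets, with the group mean and SD. E0771 DIO tumors, whose rise chose the genes, lay between 7.39 and 12.55, above all E0771 Con tumors. The highest tumor of metM-Wnt-liver (11.56) and that of metM-Wnt-lung (10.32) were DIO tumors.

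The metM-Wnt-lung tumors are independent of the rule, and there Alas2 rose with obesity. The 6 Con tumors had a lowest, median and highest signal of 4.92, 6.08 and 6.97, and the 7 DIO tumors 6.55, 6.76 and 10.32. ConSul tumors were at 6.0, 6.35 and 7.4, and DIOSul tumors at 6.06, 6.63 and 8.99. The groups overlapped: 3 of 7 DIO tumors lay above all Con tumors, and 5 of 6 Con tumors below all DIO tumors. DIO minus Con was 1.47 ± 0.532 (SE, 95% interval 0.380 to 2.568), a 2.78-fold rise that limma called (adjusted p = 0.0406). It was the only one of the 4 members called in this comparison, in which 27.4% of all genes were called, so 1 of 4 is a share close to the background. The call was lost in 6 of the 13 fits that leave out 1 tumor (adjusted p up to 0.0984), namely without Con replicate 1, 2, 3 or 5 or DIO replicate 1 or 5, and without DIO replicate 1, the tumor at 10.32, the difference was 1.007 (adjusted p = 0.0975). With only the Con and DIO arrays in the fit the adjusted p was 0.0777, and with the value range of each array as a covariate the difference was 2.91 (adjusted p = 0.134).

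Sulindac was not followed by a called difference of Alas2 in metM-Wnt-lung tumors. DIO minus DIOSul was 0.627 ± 0.511 (adjusted p = 0.732), where 0.246% of genes were called. Con minus ConSul was −0.537 (adjusted p = 0.543), with 17.4% called, and DIOSul minus ConSul was 0.311 (adjusted p = 0.966), with 0.226% called. The diet-by-sulindac term, DIO minus DIOSul less Con minus ConSul, was 1.16 ± 0.752 (adjusted p = 0.347), with 8.99% of genes called. Without DIO replicate 1, DIO minus DIOSul was 0.160 and the diet-by-sulindac term 0.696. The SD of Alas2 was 1.44 in DIO against 0.686 in Con tumors.

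In metM-Wnt-liver tumors Alas2 gave a difference of the same size that did not pass the test. The 7 Con tumors had a lowest, median and highest signal of 6.01, 6.7 and 6.98. In the 7 DIO tumors these were 6.57, 7.55 and 11.56. The 7 DIOSul tumors were at 6.2, 6.76 and 8.28. The 4 ConSul tumors were at 5.87, 5.56, 5.73 and 7.36. Of the DIO tumors, 5 of 7 lay above every Con tumor. The difference DIO minus Con was 1.48 ± 0.512 (95% interval 0.423 to 2.528, adjusted p = 0.808), the 13th largest of all genes. In that comparison limma called 0% of genes and 1045 had an unadjusted p under 0.05. Without DIO replicate 3, the tumor at 11.56, the difference was 0.887.

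The sulindac comparisons of Alas2 in metM-Wnt-liver tumors were not called either. DIO minus DIOSul was 1.14 ± 0.512 (adjusted p = 0.620), where 0% of genes were called and 1470 had an unadjusted p under 0.05. Con minus ConSul was 0.424 (adjusted p = 0.702), with 11.4% of genes called, and DIOSul minus ConSul was 0.761 (adjusted p = 0.430), with 13.2% called. The diet-by-sulindac term was 0.714 ± 0.789 (adjusted p = 0.686), with 2.22% called. Without DIO replicate 3, DIO minus DIOSul was 0.550 and this term 0.126. DIO tumors thus had the highest mean of Alas2 in both metM-Wnt lines, although the metM-Wnt-lung medians of DIO and DIOSul were close, at 6.76 and 6.63. They did so in E0771 too, but there the rise of Alas2 in DIO tumors chose the genes.

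Slc4a1, the band 3 gene, followed Alas2 in part. In E0771 the lowest, median and highest signals were 4.66, 5.095 and 5.73 in Con, 4.17, 5.15 and 6.07 in ConSul, 4.64, 5.65 and 8.62 in DIO, and 4.45, 4.88 and 5.48 in DIOSul. The DIO range was set by 1 tumor, DIO replicate 2, the same tumor that was highest for Alas2. DIO minus Con was 0.597 ± 0.40 and DIO minus DIOSul 0.859 ± 0.37, as descriptions. Without DIO replicate 2 they were 0.195 and 0.456. DIOSul minus ConSul was −0.137 (adjusted p = 0.92).

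In metM-Wnt-lung tumors Slc4a1 was at 3.58, 4.665 and 5.41 in Con, 4.22, 5.28 and 5.86 in ConSul, 4.23, 5.12 and 6.91 in DIO, and 4.43, 5.38 and 5.68 in DIOSul. Its DIO minus Con difference was 0.839 ± 0.365 (adjusted p = 0.0879) and Con minus ConSul −0.727 (adjusted p = 0.189), neither of them called. The first was called in 2 of the 13 fits that leave out 1 tumor, without Con replicate 1 (1.02, adjusted p = 0.0477) and without DIO replicate 4 (1.03, adjusted p = 0.0313). Con was the lowest group for Slc4a1 in this line, and the other 3 groups overlapped each other.

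In metM-Wnt-liver tumors Slc4a1 was at 4.1, 5.33 and 5.59 in Con, 4.41, 6.33 and 6.8 in DIO, and 5.01, 5.42 and 6.06 in DIOSul, and the 4 ConSul tumors were at 4.86, 4.1, 4.72 and 4.72. Here DIO minus Con was 0.857 ± 0.287 (adjusted p = 0.758). Of the DIO tumors, 5 of 7 lay above all Con tumors. All 7 DIOSul tumors lay above all 4 ConSul tumors, a separation seen for 9.03% of all genes here, and DIOSul minus ConSul was 0.874 ± 0.336 (adjusted p = 0.0841). With only these 2 groups in the fit it was called (adjusted p = 0.0198). DIO minus DIOSul was 0.526 (adjusted p = 0.721) and Con minus ConSul 0.543 (adjusted p = 0.317).

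Epb42 and Klf1 had low signals, at the 11.2th and 13.1st percentile of all genes on average, where differences in RNA are measured poorly. Epb42 ranged from 3.25 to 5.19 over the 79 arrays. In E0771 tumors its lowest, median and highest signals were 3.56, 3.8 and 4.02 in Con, 3.62, 4.03 and 4.63 in ConSul, 3.29, 4.065 and 5.19 in DIO and 3.52, 3.96 and 4.32 in DIOSul. The 3 E0771 tumors highest for Epb42 were DIO replicates 2, 7 and 6, at 5.19, 4.92 and 4.78, and these were also the 3 highest for Alas2, while DIO as a group had both the lowest and the highest Epb42 signal of the line. DIO minus Con was 0.444 ± 0.232 for Epb42 in E0771 tumors. It was −0.0152 (adjusted p = 0.964) and 0.339 ± 0.215 (adjusted p = 0.965) for the lung and liver lines of metM-Wnt.

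Klf1, the erythroid transcription factor, varied least of the members, with an SD of 0.311 over the arrays and a range from 3.33 to 4.87. Its group medians lay between 3.575 in metM-Wnt-lung Con and 4.21 in E0771 DIOSul tumors. In the E0771 tumor with the highest Alas2 signal, Klf1 was at 3.57, the 27th of 28. Its DIO minus Con difference was 0.106 ± 0.161 in E0771 tumors. The metM-Wnt lines gave 0.285 (lung, adjusted p = 0.307) and 0.0171 (liver, adjusted p = 0.999). The smallest p for Klf1 within a line was that of E0771 DIOSul minus ConSul, 0.324 ± 0.161 (adjusted p = 0.390).

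**Figure D2:**
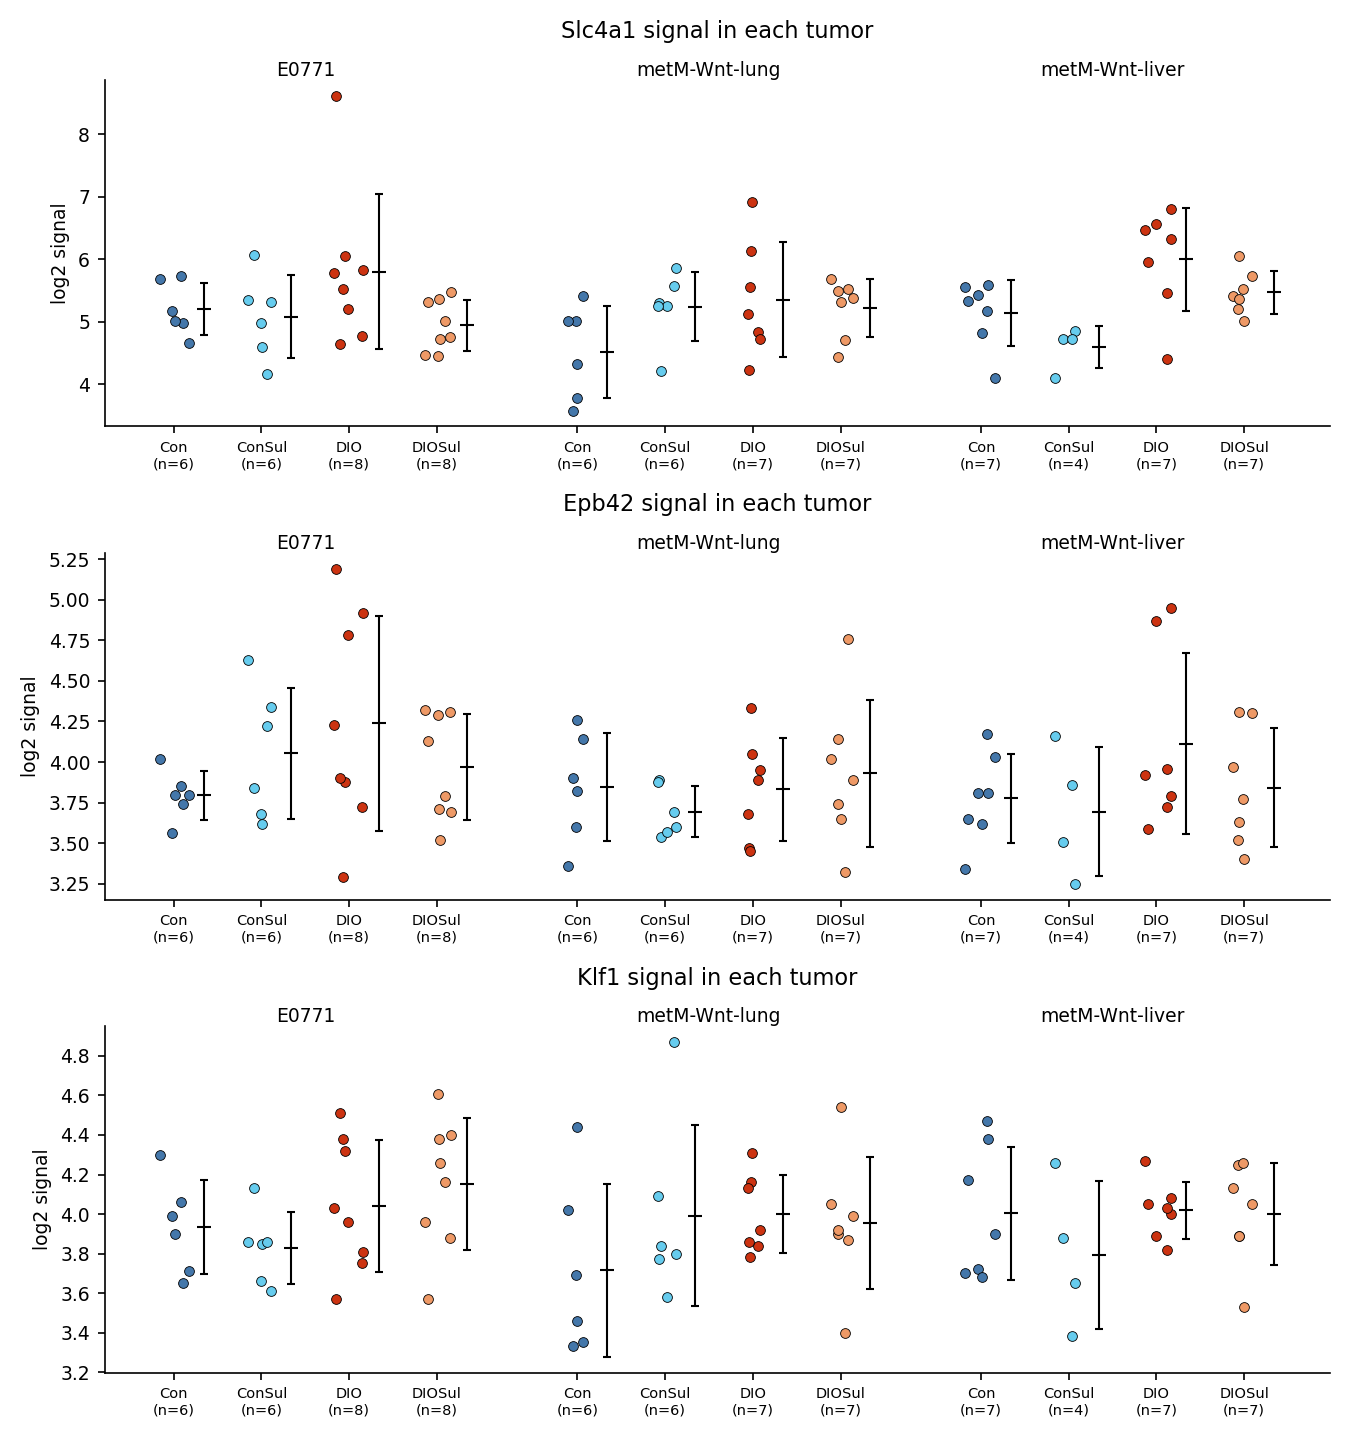
Log2 signals of Slc4a1, Epb42 and Klf1 in each tumor (points) of the 12 line-by-group sets, with group mean and SD. Slc4a1 reached 8.62 in 1 E0771 DIO tumor, and Klf1 stayed between 3.33 and 4.87.

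Over the 9 within-line comparisons that could be tested, 36 tests of a member gave 1 call, Alas2 in metM-Wnt-lung DIO minus Con, and 6 had an unadjusted p under 0.05. Those 6 were Alas2 and Slc4a1 in both metM-Wnt lines for DIO minus Con, Alas2 in metM-Wnt-liver for DIO minus DIOSul, and Slc4a1 in metM-Wnt-liver for DIOSul minus ConSul. All 6 were positive. Of all 19505 genes, 7628 had an unadjusted p under 0.05 in metM-Wnt-lung DIO minus Con. In metM-Wnt-liver it was 1045 for DIO minus Con, 1470 for DIO minus DIOSul and 5535 for DIOSul minus ConSul. The share of all genes called in the 9 comparisons ran from 0% to 27.4%. The median of the 4 members for DIO minus Con was 0.520, 0.562 and 0.598 in E0771, metM-Wnt-lung and then metM-Wnt-liver tumors, against medians of all genes of 0.000417, 0.0443 and −0.00286. For DIO minus DIOSul it was 0.564, 0.0929 and 0.399. In each line both contrasts use the same DIO arrays. The E0771 medians share the arrays that chose the genes, so they are a description and do not count as agreement with the other lines.

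**Figure D3:**
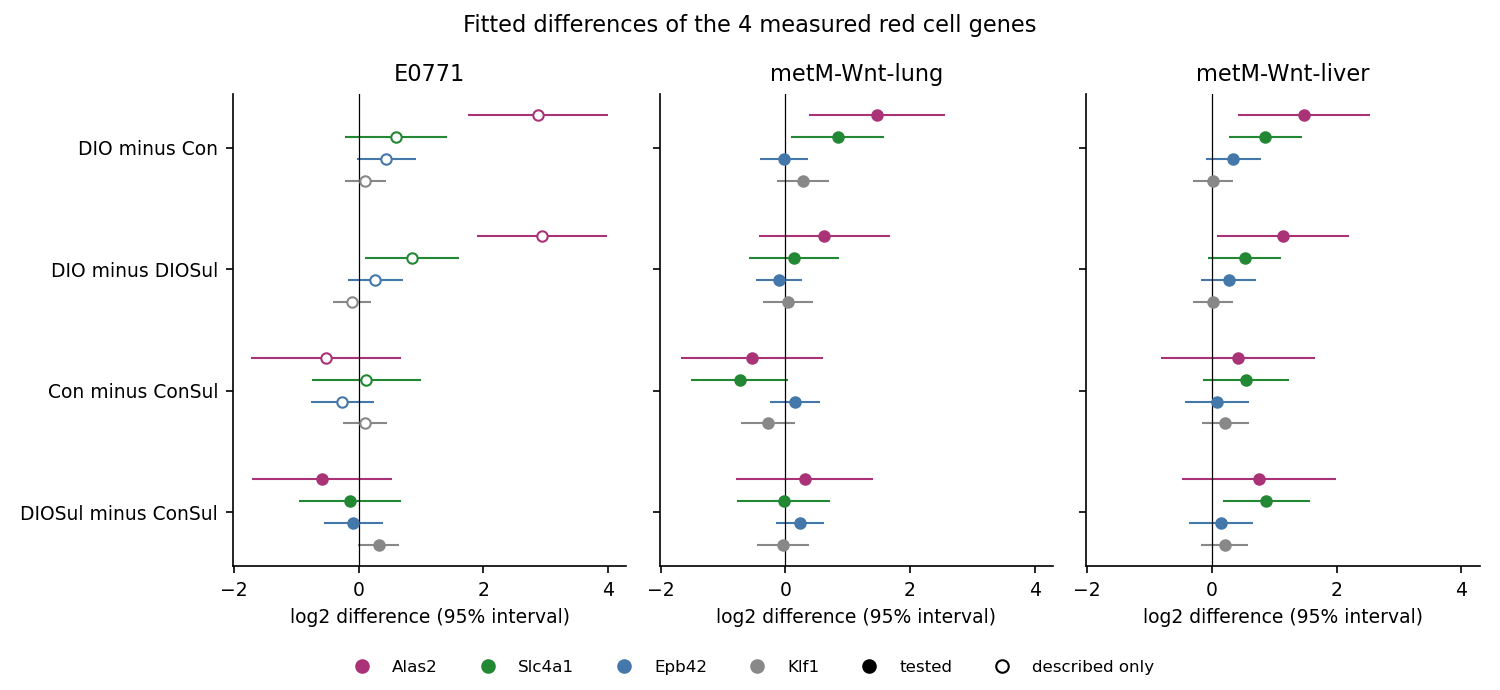
Fitted log2 difference of each member with its 95% interval, for the comparisons within each line. Open points share arrays with the choice of the genes and are described only, filled points were tested, and the metM-Wnt-lung DIO minus Con difference of Alas2, 1.47, was the one called.

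Whether the lines differed was tested with all 12 sets in 1 fit, leaving out contrasts of E0771 Con or DIO arrays. No member was called in any of these 6 comparisons, and of 24 tests 1 had an unadjusted p under 0.05. The DIO minus Con difference of Alas2 in metM-Wnt-lung less that in metM-Wnt-liver was −0.00143 ± 0.795 (95% interval −1.585 to 1.583, adjusted p = 0.999), with 11.5% of genes called. The interval leaves room for a difference as large as either effect. For DIO minus DIOSul, metM-Wnt-lung less metM-Wnt-liver gave −0.511 (adjusted p = 0.999), where 0% of genes were called and 718 had an unadjusted p under 0.05.

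The remaining differences between lines were as follows. For Con minus ConSul, metM-Wnt-lung less metM-Wnt-liver, Alas2 gave −0.961 (adjusted p = 0.435) and Slc4a1 −1.27 ± 0.58 (adjusted p = 0.0892), with 29.9% of genes called. This contrast sets both groups of arrays with a wide value range against the others, and for Slc4a1 it was called with only the 4 groups compared (adjusted p = 0.0434) and without metM-Wnt-lung ConSul replicate 1 (adjusted p = 0.0499). DIOSul minus ConSul of Alas2 was −0.892 in E0771 less metM-Wnt-lung (adjusted p = 0.856; 0% of genes called, 1498 at an unadjusted p under 0.05). It was −1.34 in E0771 less metM-Wnt-liver (adjusted p = 0.363, 7.18% called) and −0.451 in metM-Wnt-lung less metM-Wnt-liver (adjusted p = 0.85, 2.43% called).

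The 3 DIO groups had the highest mean Alas2 levels of the 12 sets, and E0771 DIO is the group whose rise chose the genes. Group means ran from E0771 DIO (9.07 ± 1.62, SD) through metM-Wnt-liver DIO (8.03 ± 1.71), metM-Wnt-lung DIO (7.51 ± 1.44) and metM-Wnt-liver DIOSul (6.89 ± 0.65) down to metM-Wnt-lung Con (6.04 ± 0.686). No neighbours in that order differed by more than the pooled SD of 1.06, the widest step being 1.04. For Slc4a1 the order was metM-Wnt-liver DIO (6.0) and E0771 DIO (5.80) at the top and metM-Wnt-lung Con (4.52) at the bottom, again with no step above the pooled SD of 0.697. Among DIOSul tumors, Alas2 in E0771 was −0.753 against metM-Wnt-lung (adjusted p = 0.254) and −0.758 against metM-Wnt-liver (adjusted p = 0.248), and metM-Wnt-lung minus metM-Wnt-liver was −0.00429 (adjusted p = 0.999). Among DIO tumors metM-Wnt-lung minus metM-Wnt-liver was −0.516 (adjusted p = 0.755). Of all genes 46.6%, 47.3%, 6.53% and 8.45% were called in these 4 comparisons, against 0 of 16 member tests, none of which had an unadjusted p under 0.05.

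The members did not move as 1 unit across tumors. With each gene centred on its line mean, Alas2 and Slc4a1 correlated at r = 0.576 over the 79 arrays, Alas2 and Epb42 at 0.427, and Alas2 and Klf1 at 0.021. With group means removed these were 0.44, 0.345 and −0.074. All points share array and extraction, and no p is given. In E0771 the correlation of Alas2 and Slc4a1 was r = 0.617 (Spearman's rho 0.309) over 28 tumors and 0.134 without the 2 tumors farthest from the median of Alas2, so it rested on those tumors, and that of Alas2 and Epb42 went from 0.508 to 0.108 in the same way. In metM-Wnt-liver tumors it was r = 0.621 (rho 0.479, 0.408 without 2 tumors, n = 25), and in metM-Wnt-lung tumors r = 0.469 (rho 0.388, 0.389 without 2 tumors, n = 26).

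The wider red cell program was read from 5 lists that were chosen with earlier results known: other globins, heme synthesis, red cell membrane and skeleton, erythroid regulators, and red cell enzymes and maturation genes. Of their 62 measured genes, 15 were called for DIO minus Con of metM-Wnt-lung, a share of 24.2% against 27.4% of all genes; 5 of them were higher in DIO tumors and 10 lower. The share was 11.3% for Con minus ConSul and 1.61% for DIOSul minus ConSul in that line. In metM-Wnt-liver it was 9.68% for Con minus ConSul and 14.5% for DIOSul minus ConSul, and in the other 4 tested comparisons 0 of 62 were called. Over all genes, 17.4% were called for Con minus ConSul and 0.226% for DIOSul minus ConSul in metM-Wnt-lung, and 11.4% and 13.2% for the same contrasts in metM-Wnt-liver. In the 4 comparisons with 0 of 62, the shares of all genes were 0.0974% (E0771 DIOSul minus ConSul), 0.246% (metM-Wnt-lung DIO minus DIOSul) and 0% (both metM-Wnt-liver DIO contrasts).

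None of the 5 other globin genes measured was called in any of the 9 comparisons. They are the embryonic Hba-x, Hbb-y and Hbb-bh1 and the theta globins Hbq1a and Hbq1b, and all lay between 2.96 and 5.06, with means at the 1.03rd to 13.4th percentile of all genes. The smallest p among them was that of Hbb-y in E0771 DIOSul minus ConSul, −0.778 ± 0.206 (adjusted p = 0.0999). Of 11 heme synthesis genes other than Alas2, 0 were called higher in any of these 9 comparisons. E0771 Con and DIO tumors are described only, and there the mean log2 signal of the 11 was 9.724 to 10.233 and 10.008 to 10.233. Alad, the second enzyme of the pathway, was called lower in metM-Wnt-liver DIOSul than ConSul (−1.04 ± 0.275, adjusted p = 0.0139), and Tmem14c, a mitochondrial porphyrin transporter, was called lower in metM-Wnt-lung DIOSul than ConSul (−0.606 ± 0.13, adjusted p = 0.0399). In metM-Wnt-lung DIO minus Con, where Alas2 and 27.4% of all genes were called, 0 of the 11 were called higher and 1, again Tmem14c, lower.

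Of 15 other membrane genes, 3 were called lower in metM-Wnt-lung DIO than in Con tumors and 0 higher, among them Kel, a blood group antigen gene (−0.454 ± 0.128, adjusted p = 0.0103). That comparison called 27.4% of all genes, 2734 higher and 2606 lower, which is the background of this and its next counts. In metM-Wnt-liver, Gypc, the glycophorin C gene, was higher in Con than in ConSul (0.759, adjusted p = 0.0279) and Add2, the beta adducin gene, was lower in DIOSul than in ConSul (−2.33, adjusted p = 0.0144). Of 14 regulators, DIO minus Con of metM-Wnt-lung tumors had 2 higher and 3 lower, including Lmo2, a partner of GATA1 and TAL1 that other blood and vessel cells also use (−1.89 ± 0.283, adjusted p = 2.92e-05). In metM-Wnt-liver Con minus ConSul, Zfpm1, the GATA1 cofactor FOG1, was higher (1.59, adjusted p = 0.000924) and Sox6, a repressor of embryonic globins, lower (adjusted p = 0.000406). Of 17 enzyme and maturation genes, 3 were called in each direction in metM-Wnt-lung DIO minus Con. Fhdc1, which encodes a formin-related protein, was higher (1.67 ± 0.325, adjusted p = 0.00047) and Isg20, an exonuclease gene that immune cells express, lower (−1.46 ± 0.217, adjusted p = 2.71e-05). Ube2o, whose enzyme clears proteins from maturing red cells, was higher in metM-Wnt-liver Con than ConSul (1.08, adjusted p = 0.00217). Most of these genes are used outside red cells too. With the value range of each array as a covariate, Lmo2 kept its call and Alad, Kel, Gypc, Add2, Zfpm1, Sox6, Fhdc1, Isg20 and Ube2o lost theirs. Under it the differences were −0.967 for Alad, −0.685 for Kel, 0.833 for Gypc, −4.83 for Add2, 2.33 for Zfpm1, −2.07 for Sox6, 2.003 for Fhdc1, −1.41 for Isg20 and 1.55 for Ube2o, all with their reported sign. Calls were also lost without 1 tumor for Tmem14c (DIOSul replicate 1, adjusted p = 0.0681), for Alad and Add2 (ConSul replicate 1, adjusted p = 0.0585 and 0.0843) and for Gypc (ConSul replicate 2, adjusted p = 0.108). With only the groups compared, Tmem14c (adjusted p = 0.0718) and Gypc (0.0570) lost theirs, and Tmem14c did so with all 3 lines in 1 fit (0.111). Without the arrays high in muscle or keratinocyte genes, Tmem14c (−0.405, adjusted p = 0.992) and Kel (adjusted p = 0.0647) were not called.

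Of 12 genes of iron uptake and heme clearance, metM-Wnt-lung DIO tumors had 1 higher and 2 lower than Con tumors, a share near the 27.4% of all genes. Tfrc, the transferrin receptor, was higher (1.32 ± 0.196, adjusted p = 2.63e-05), and Hp, which encodes the hemoglobin-binding plasma protein haptoglobin, and Cd163, the macrophage receptor that takes up the bound hemoglobin, were lower (−7.06 ± 1.47, adjusted p = 0.000894, and −4.94 ± 1.06, adjusted p = 0.00125). In the same comparison all 7 measured adipocyte genes were lower, with Plin1 at −5.13 (adjusted p = 1.79e-05). The Con group of that line had adipocyte scores, the mean log2 signal of the list, of 9.37 to 14.95 against 4.81 to 10.74 in DIO tumors. ConSul and DIOSul tumors of the line were at 5.20 to 8.63 and 5.38 to 8.47, so the high scores belonged to Con and not to both lean groups. In metM-Wnt-liver the ConSul group, also of wide value range, was at 10.15 to 12.67 against 4.48 to 10.44 in Con tumors. With the value range as a covariate Tfrc kept its call, and Hp, Cd163 and Plin1 lost theirs at differences of −7.70, −7.54 and −4.44. Hp is also an adipocyte transcript, and the part of fat tissue in these differences was not tested.

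Markers of other blood cells moved with Alas2. Over the 79 arrays, with line means removed, Alas2 correlated at r = 0.775 with the mean of 10 platelet and megakaryocyte markers and at 0.729 with that of 8 neutrophil markers, and at −0.535 with that of 7 pan-leukocyte markers. The correlations with the enzyme and maturation, heme synthesis, other globin, membrane and regulator lists were 0.579, 0.234, 0.203, −0.167 and −0.085. The granulocyte precursor and hypoxia lists gave 0.331 and 0.348, and iron, endothelium, keratinocyte, muscle and adipocyte lists −0.014, −0.023, −0.1, −0.188 and −0.292. The platelet relation was r = 0.855 in E0771 (rho 0.668, 0.751 without the 2 farthest tumors), 0.787 in metM-Wnt-lung (rho 0.546, 0.608) and 0.708 in metM-Wnt-liver tumors (rho 0.46, 0.407). The neutrophil relation was 0.711 (rho 0.706, 0.625), 0.732 (rho 0.703, 0.685) and 0.839 (rho 0.476, 0.438) in the same order. The points share array and extraction, and no p is given. Group means were left in, and the E0771 Con and DIO arrays, whose Alas2 values chose the genes, are among the points. These r values therefore hold that difference, and none with group means removed is given for the lists. For single genes, removing group means lowered r with Alas2 from 0.784 to 0.613 (Ppbp) and from 0.601 to 0.437 (Gp9).

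**Figure D4:**
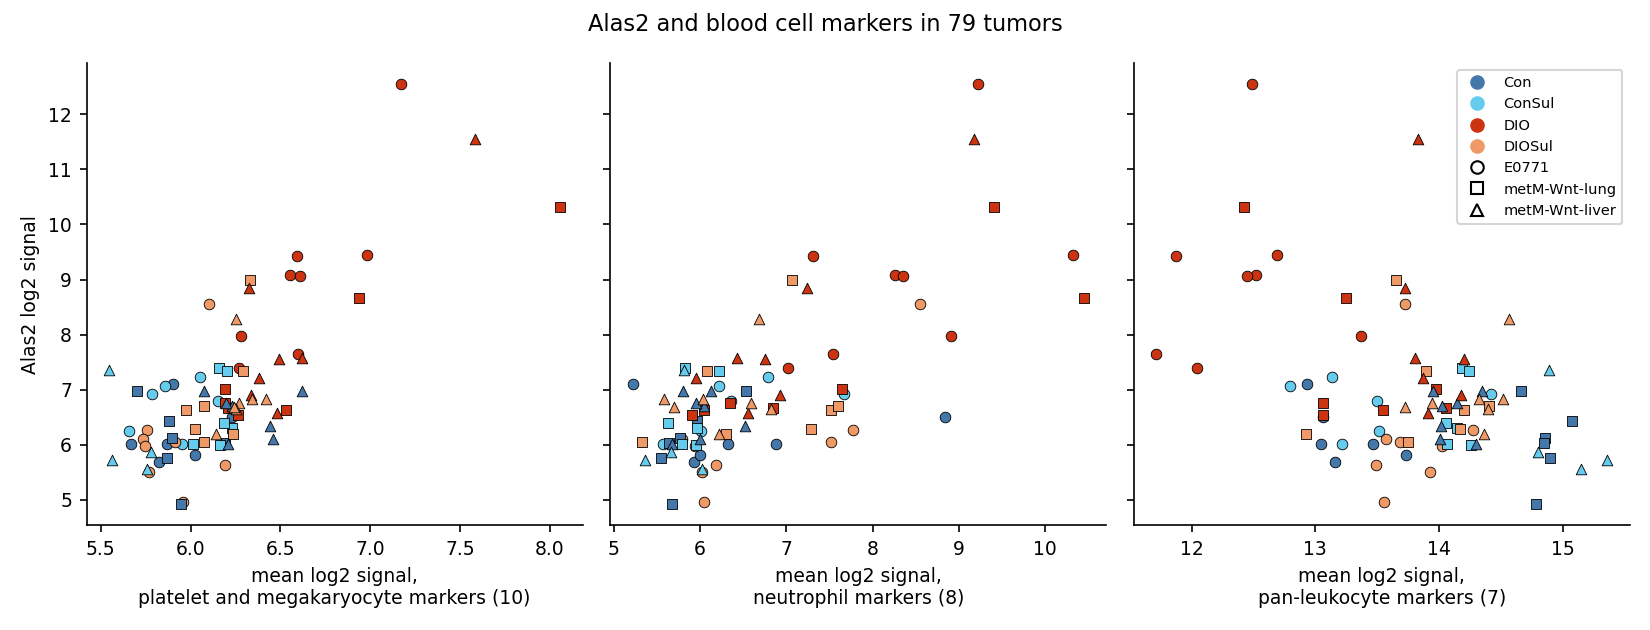
Alas2 log2 signal of each of the 79 tumors against the mean log2 signal of 10 platelet and megakaryocyte, 8 neutrophil and 7 pan-leukocyte markers (color, group; symbol, line). High Alas2 goes with high platelet and neutrophil scores (r = 0.775 and 0.729 with line means removed and group means left in) and with low pan-leukocyte scores (r = −0.535).

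By group, the platelet score of E0771 tumors was 5.667 to 6.229 in Con, 5.659 to 6.152 in ConSul, 6.271 to 7.172 in DIO and 5.737 to 6.194 in DIOSul, so that DIO lay above the other 3 groups as Alas2 did against Con. In metM-Wnt-lung it was 5.703 to 6.193 in Con, 6.012 to 6.233 in ConSul, 6.193 to 8.056 in DIO and 5.977 to 6.329 in DIOSul. In metM-Wnt-liver it was 6.073 to 6.621 in Con, 5.547 to 5.778 in ConSul, 6.325 to 7.584 in DIO and 6.141 to 6.419 in DIOSul. The neutrophil score was 5.221 to 8.835 in E0771 Con, 7.020 to 10.319 in DIO and 5.796 to 8.546 in DIOSul tumors. It was 5.551 to 6.539 in Con and 5.906 to 10.446 in DIO tumors of metM-Wnt-lung, and 5.680 to 6.524 and 5.950 to 9.180 in metM-Wnt-liver. The metM-Wnt-lung DIOSul tumors were at 5.331 to 7.599, and their median of 7.069 was not below that of DIO, 6.846. DIOSul tumors of metM-Wnt-liver were at 5.581 to 6.826. The pan-leukocyte score ran the other way in E0771, at 12.931 to 13.737 in Con, 11.714 to 13.369 in DIO and 13.491 to 14.274 in DIOSul, and in metM-Wnt-lung, at 14.661 to 15.076 in Con and 12.423 to 14.054 in DIO. In metM-Wnt-lung it was 14.057 to 14.256 in ConSul and 12.929 to 14.401 in DIOSul. For metM-Wnt-liver, Con (13.95 to 14.347), DIO (13.727 to 14.203) and DIOSul tumors (13.726 to 14.57) overlapped, and ConSul tumors were at 14.803 to 15.36.

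Where Alas2 was called, in metM-Wnt-lung DIO minus Con, 3 of 10 platelet markers were called higher and 0 lower, including Gp9, a subunit of the platelet von Willebrand factor receptor (2.06 ± 0.242, adjusted p = 1.33e-06). The share of all genes called in this comparison, 27.4%, is the background of this and the next counts, and 3 of 10 is close to it. Gp9 means were 4.125 in Con, 5.488 in ConSul, 6.187 in DIO and 5.693 in DIOSul tumors. Con was thus the lowest group, and its arrays had the wide value range given above. Pf4, of the same list, ran the other way, with means of 12.877 in Con and 12.259 in DIO tumors. In that order Ppbp was at 4.322 and 6.429, Gp5 at 4.175 and 4.553, Itga2b at 6.497 and 6.886 and Treml1 at 4.153 and 4.331. Of 8 neutrophil markers 4 were higher and 1 lower. S100a8, a calprotectin subunit, was higher by 4.35 ± 0.909 (adjusted p = 0.000956), and the chemokine receptors Cxcr1 and Cxcr2 by 1.53 (adjusted p = 0.000871) and 2.09 (adjusted p = 0.00812). All 7 pan-leukocyte markers were lower, with Lcp1, an actin-bundling protein of leukocytes, at −1.44 ± 0.168 (adjusted p = 1.33e-06). In the same comparison 4 of 11 hypoxia genes were called higher and 0 lower, 0 of 11 granulocyte precursor genes higher and 2 lower, 1 of 10 endothelial genes higher and 2 lower, and 0 of 8 muscle and 0 of 8 keratinocyte genes in either direction. In metM-Wnt-liver DIO minus Con, where Alas2 and Slc4a1 had an unadjusted p under 0.05, none of these markers was called, and neither was any other of the 19505 genes. With the value range as a covariate Gp9 and Lcp1 kept their calls and S100a8, Cxcr1 and Cxcr2 lost theirs at differences of 4.63, 1.61 and 1.75. The part of these markers in the Alas2 differences was not tested.

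The mean of the 4 members mostly followed Alas2, the member with the widest spread (r = 0.915, against 0.807 with Slc4a1). The 10 genes most like this mean, by Pearson's r over 79 line-centred arrays, were Ppbp (0.742), Stfa2l1 (0.672), Retnlg (0.653), S100a8 (0.652), Cxcl2 (0.65), Cxcl3 (0.643), Fam220a (0.63), Csta2 (0.629), Mmp8 (0.621) and Gp9 (0.618). Ppbp encodes a chemokine of platelet granules, Cxcl2 and Cxcl3 encode neutrophil-attracting chemokines, and Mmp8 is neutrophil collagenase. No gene of the 5 red cell lists was among them. With group means removed, r of the 10 with the member mean was 0.372 to 0.549, so a part of the likeness lay between tumors of 1 group. Ppbp correlated with Alas2 at 0.744 over the E0771 tumors, and at 0.816 and 0.847 over the metM-Wnt tumors of the lung and liver lines. In E0771 its lowest, median and highest signals were 3.92, 4.44 and 8.04 in Con, 5.58, 8.14 and 9.65 in DIO and 3.89, 4.545 and 6.14 in DIOSul.

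The tumor with the highest Alas2 signal of each line was a DIO tumor, in E0771 within the group whose rise chose the genes. In E0771 it was DIO replicate 2, at 12.55 for Alas2, with Slc4a1 (8.62) and Epb42 (5.19) also the highest of 28 tumors. It had the highest platelet score (7.17) of the line and the second highest neutrophil score (9.22), while its pan-leukocyte score of 12.49 was the 24th of 28. Its heme synthesis score of 10.23 was level with that of Con replicate 4, whose Alas2 signal was 6.02. In metM-Wnt-liver it was DIO replicate 3 (Alas2 11.56, Slc4a1 6.8, both the highest of 25, but Epb42 3.79, the 14th), with the highest platelet (7.58), neutrophil (9.18), red cell enzyme (10.51) and hypoxia (12.8) scores. In metM-Wnt-lung it was DIO replicate 1 (Alas2 10.32), which was the second highest of 26 for Slc4a1 (6.13) and Epb42 (4.33). That tumor had the highest platelet (8.06), red cell enzyme (10.41) and hypoxia (12.82) scores, the second highest neutrophil score (9.41), and the lowest pan-leukocyte (12.42), adipocyte (4.81) and erythroid regulator (5.39) scores of the line.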

How the data were processed

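RNA of 79 whole tumors was measured on Clariom S Mouse HT arrays. The deposited values are log2 signals that the authors made with SST-RMA in Transcriptome Analysis Console, and whether the 3 lines were normalized together is not given in the sources used here. They were used as deposited. Of 22206 transcript clusters, 19572 carried 1 gene symbol. Where a gene had several clusters (55 genes), the one with the highest mean was kept, leaving 19505 genes; the 2634 clusters without a symbol were not analysed. Arrays have no read depth, and the number of tumors limits the precision.

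Each line's 4 groups entered 1 limma model (version 3.58.1, R 4.3.3), and all 12 sets entered another for differences between lines. The Benjamini-Hochberg adjustment ran over the 19505 genes, with calls made where the adjusted p was under 0.05. The fits were tested on simulated data. Scores are means of log2 signals over a list. The members and the 15 other lists were chosen with earlier results of these data known. Named are all members, up to 3 genes per list with the smallest p over the 9 tested within-line comparisons, and the 10 genes most like the members' mean.

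Replicate numbers come from the labels and name tumors only. The deviations of same-numbered arrays from their group means had average correlations of −0.00692 in E0771, 0.0430 in the lung line and −0.0116 in the liver line, so these were not treated as pairs. Alternatives were the samples in the fit, quantile normalization, array weights, a trended robust prior, a filter on low signal, the mean over clusters, the value spread of each array as a covariate, the replicate number as a block and each array left out. Without the arrays high in muscle or keratinocyte genes was added after the data were seen.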

Additional observations from a re-analysis of the deposited data

Results flagged for a closer look

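Of 48 gene-by-group sets of the 4 members, 5 held an array whose gap to its nearest neighbour was large against the range of its group. Chance marks about 1 in 20 groups, but 2 of the 5 are E0771 DIO arrays, whose values chose the genes, so the count is given as a description and is not set against that rate. Alas2 was at 12.55 in E0771 DIO replicate 2 and Slc4a1 at 8.62 in the same tumor. Alas2 was at 8.56 in E0771 DIOSul replicate 2 and at 8.28 in metM-Wnt-liver DIOSul replicate 3, each the highest of its group. Slc4a1 in metM-Wnt-lung ConSul replicate 1, at 4.22, lay below the rest of its group.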

How the results depend on the processing

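The 1 call among the members in metM-Wnt-lung DIO minus Con, that of Alas2, became 0 with only the groups compared (Alas2 1.47, adjusted p = 0.0777), with array weights (1.26, adjusted p = 0.0799), with the value spread of each array as a covariate (2.91, adjusted p = 0.134) and, on leaving out the arrays that were high in muscle or keratinocyte genes (1.45, adjusted p = 0.115), a step chosen after the data were seen. Leaving out 1 tumor gave 0 to 2 members called. It stayed at 1 with the replicate number as a block (Alas2 1.61, adjusted p = 0.0441), and the block changed no other call of a member. With only the groups compared, Slc4a1 became the 1 member called in metM-Wnt-liver DIOSul minus ConSul, in Con minus ConSul of metM-Wnt-lung less metM-Wnt-liver (0 to 1 with 1 tumor left out) and in DIOSul tumors of E0771 minus metM-Wnt-liver (−0.529, adjusted p = 0.0282). The median of the members in E0771 DIO minus Con was 2.88 above the median signal, where Alas2 was the one member left, and 0.251 to 0.631 with 1 tumor left out, the lowest without DIO replicate 2.

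Reversed without arrays high in muscle or keratinocyte genes were Epb42 in metM-Wnt-lung DIOSul minus ConSul (−0.193), in DIOSul minus ConSul of E0771 less metM-Wnt-lung (0.203) and in DIO minus DIOSul of metM-Wnt-lung less metM-Wnt-liver (0.0725), and Krt1 in metM-Wnt-lung DIO minus DIOSul (0.0933). With the value spread as a covariate, Hbb-bh1 (0.0305) and Pf4 (−0.0812) in metM-Wnt-lung Con minus ConSul and Mylpf (0.611) and Myh4 (0.461) in metM-Wnt-lung DIO minus Con reversed. None of these values was called except Pf4 in the reported fit, and the cause was not tested. The spread covariate nearly coincides with 1 group per metM-Wnt line, and most losses of a call for a listed gene came with it. Of all gene-level comparisons, 1488 kept direction and call, 45 lost the call, 12 gained it and 8 reversed; 37 uncalled differences below their standard error changed sign in 68 settings and are counted as kept. The diet-by-sulindac terms use all 4 groups of a line, so a fit with only the groups compared is the reported one. Signals near the floor limit Epb42, Klf1 and the other globins.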
